A study of Mus musculus with 8 samples.

Results

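The 10 genes described here belong to bone morphogenetic protein (BMP) signalling and were read in RNA-seq libraries of mouse haemogenic endothelium, the endothelium from which the first blood cells bud. They were the rows of the deposited count table named Bmp2, Bmp4, Bmp6, Bmp7, Bmpr1a, Bmpr2, Acvr1, Bambi, Bmper and Grem1, out of 41128 genes in all. The cells came from 2 C57BL/6 embryonic stem cell lines, whose labels give both alleles of Hdac2 or both alleles of Hdac1 flanked by lox sites. Each line was labelled as given 4-hydroxytamoxifen (4OHT), a ligand of tamoxifen-dependent Cre recombinase, or ethanol (EtOH), the solvent of 4OHT. The 4 groups, with 2 libraries each, were Hdac2 lox/lox 4OHT, Hdac2 lox/lox EtOH, Hdac1 lox/lox 4OHT and Hdac1 lox/lox EtOH. The EtOH cells thus carried the lox sites as well, and each genotype was represented by 1 line. The sources used here do not give the Cre transgene or its promoter, and 4OHT-treated cells without lox sites were not analysed here. The question behind the comparisons is how expression in haemogenic endothelium responds when either deacetylase gene is targeted.

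BMPs are secreted dimers that bring type I receptor kinases (BMPR1A, ACVR1) together with a type II kinase (BMPR2), after which SMAD1, SMAD5 and SMAD9 are phosphorylated and enter the nucleus with SMAD4. Secreted binders such as BMPER and gremlin 1 hold ligand outside the cell, and BAMBI is a membrane decoy that resembles a type I receptor but lacks a kinase domain. In the embryo BMP4 is needed for mesoderm, the source of blood and endothelium, and in endothelium BMPR2 and ACVR1 carry BMP signals. Levels below are CPM, read counts relative to library size in the usual unit, after TMM scaling, which sets libraries on a common scale. A gene is said to have risen or fallen where edgeR's quasi-likelihood test, fitted to all 8 libraries, gave a Benjamini-Hochberg adjusted p under 0.05 over all 14179 genes with enough reads to be tested.

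Libraries held 10215792 to 19552380 counts. Hdac1 lay at 4.00 to 7.45 CPM and Hdac2 at 140.3 to 164.8 CPM over all 8 libraries. In the Hdac1 line Hdac1 was not lower with 4OHT, at 6.99 and 7.12 CPM, against 5.78 and 5.60 CPM with EtOH (log2 fold change 0.31, adjusted p = 0.84). In the Hdac2 line Hdac1 had 5.12 and 4.00 CPM with 4OHT, against 7.45 and 7.16 CPM with EtOH (log2 fold change -0.68, adjusted p = 0.056). Gm10093, a gene copy closely related to Hdac1, lay at 109.2 to 155.6 CPM and read lower with 4OHT in both lines, though not called. In the Hdac1 line it had 110.5 and 114.8 CPM with 4OHT, against 146.3 and 124.8 CPM with EtOH (log2 fold change -0.27). In the Hdac2 line it had 110.4 and 109.2 CPM, against 155.6 and 134.2 CPM (log2 fold change -0.40). How reads were shared between Gm10093 and Hdac1 was not tested. Hdac2 showed no called loss in the Hdac2 line, with 149.0 and 149.4 CPM in the libraries labelled 4OHT, against 164.8 and 150.5 CPM in those labelled EtOH (log2 fold change -0.08, adjusted p = 0.67). A deletion of a few exons need not lower a count over the whole gene, and the sources used here do not name the deleted part, so these counts do not bear out the deletion, and 4OHT and EtOH below are the labels of the libraries. All 11 markers of haemogenic endothelium looked at were present, and Cdh5, the endothelial cadherin gene, reached 745 to 3026 CPM. Replicate 2 of Hdac2 lox/lox EtOH stood apart in the Y-linked gene Ddx3y, at 4.58 CPM against 0.324 to 0.889 CPM in the other 3 libraries of its line. The 4 libraries of the Hdac1 line had 25.8 to 45.7 CPM of Ddx3y, so the lines differed in Y-linked expression, and its part in comparisons between lines was not tested. The libraries of the Hdac1 line did not sort by label: over all tested genes, 4OHT replicate 1 resembled EtOH replicate 2 (Pearson r of log2 CPM 0.987) more than 4OHT replicate 2 (0.976). An exchange of labels in this line was not tested and would change what each of its folds means. No label says that replicates were separate cultures, so the p-values reflect only sample-to-sample spread, part or all of which may be technical.

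With 4OHT, some BMP genes read higher and others lower than with EtOH in the Hdac2 line. Bmp6 stood 8.77-fold higher than with EtOH, the receptor genes Bmpr2 and Acvr1 3.78-fold and 2.51-fold higher, and Bmp2 and the decoy gene Bambi 2.29-fold and 2.22-fold lower. Of 10 members, 8 had enough reads to be tested, and 3 of these rose and 2 fell. Over all tested genes, 36.1% changed in this comparison (18.9% rose and 17.2% fell). The median log2 fold change of the 8 members was 1.00, against -0.02 over all tested genes, and the median of its absolute value was 1.26, against 0.61. In the Hdac1 line 0 members changed by edgeR, where 0% of all tested genes did, and 0 by limma-voom or DESeq2, while 1 had an unadjusted p under 0.05. The plot of CPM by library shows the 10 genes in the 4 groups.

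**Figure D1:**
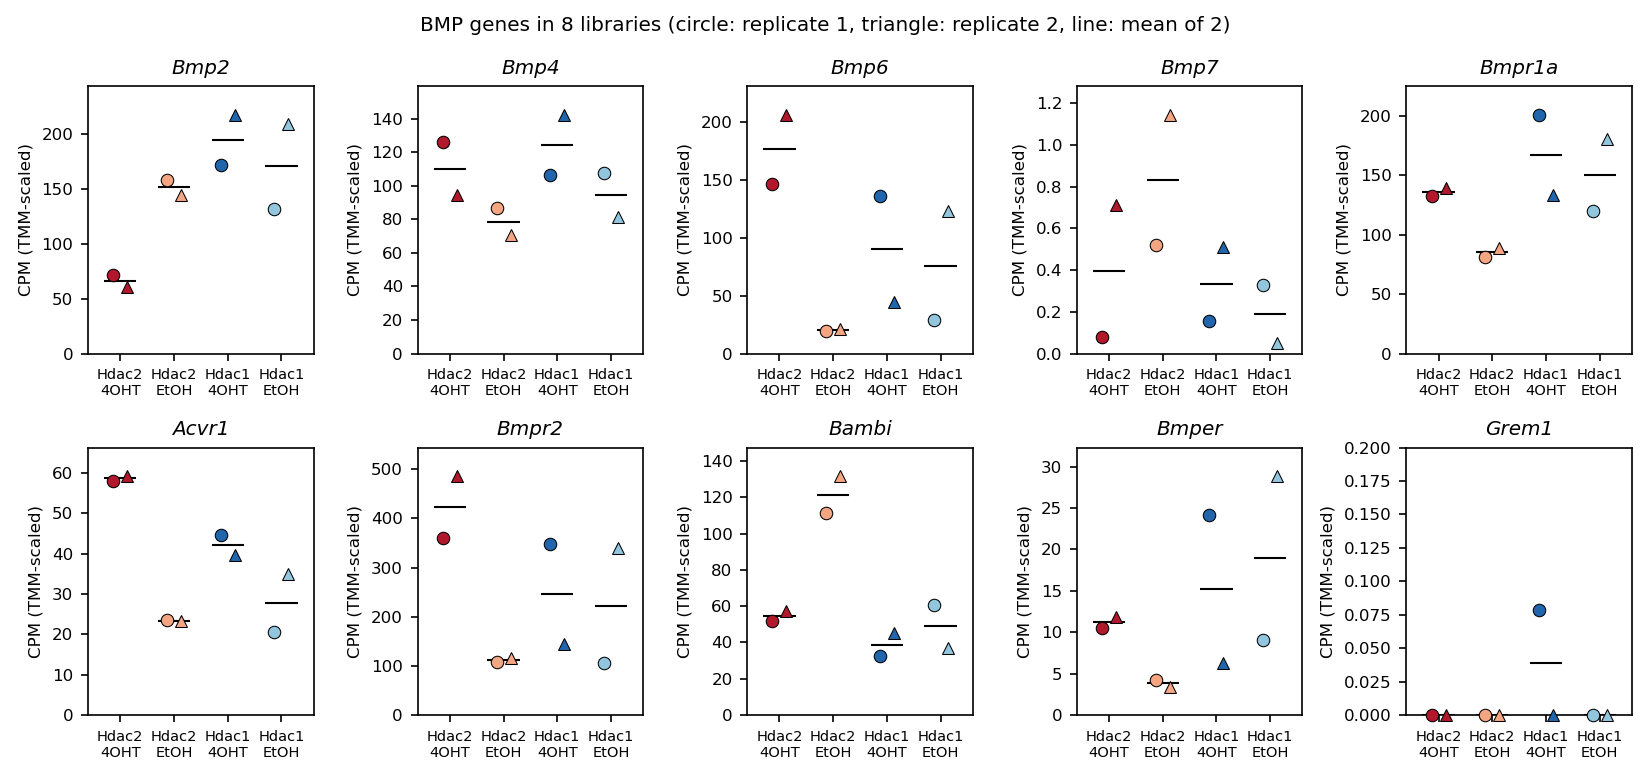
CPM (y axis, linear, a separate scale per gene) of the 10 BMP genes in each library of the 4 groups (x axis); circles are replicate 1, triangles replicate 2 and lines the mean of the 2. The Hdac2 lox/lox 4OHT libraries lie above both EtOH libraries of that line for Bmp6, Bmpr2 and Acvr1 and below them for Bmp2 and Bambi, while the replicates of each Hdac1 group lie far apart for Bmp6, Bmpr2 and Bmper.

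The promoters of the 3 members that rose in the Hdac2 line are shown. They were chosen by those calls, and shared regulation was not tested. Each is the RefSeq window on GRCm38.p6 (the mm10 assembly) from 250 bases before to 50 after the annotated start, written 5′ to 3′ on the gene's own strand. Capitals mark the GC box, searched as GGGCGG and its complement CCGCCC, the core bound by SP1-type zinc finger factors. Bmp6 is at chr13:38345466-38345765 (plus strand), Bmpr2 at chr1:59764029-59764328 (plus strand) and Acvr1 at chr2:58566779-58567078 (minus strand).
Bmp6: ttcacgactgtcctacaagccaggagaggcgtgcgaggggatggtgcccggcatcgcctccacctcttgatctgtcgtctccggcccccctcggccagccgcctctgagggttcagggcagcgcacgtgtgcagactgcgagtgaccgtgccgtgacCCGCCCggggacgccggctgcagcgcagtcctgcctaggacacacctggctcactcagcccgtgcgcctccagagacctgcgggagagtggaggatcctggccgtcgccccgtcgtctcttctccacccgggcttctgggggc
Bmpr2: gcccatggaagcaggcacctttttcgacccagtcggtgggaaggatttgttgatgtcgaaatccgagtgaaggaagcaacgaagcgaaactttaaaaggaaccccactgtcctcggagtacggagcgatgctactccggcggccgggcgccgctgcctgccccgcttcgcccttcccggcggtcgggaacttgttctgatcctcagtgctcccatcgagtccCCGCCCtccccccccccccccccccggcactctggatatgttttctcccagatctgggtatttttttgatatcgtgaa
Acvr1: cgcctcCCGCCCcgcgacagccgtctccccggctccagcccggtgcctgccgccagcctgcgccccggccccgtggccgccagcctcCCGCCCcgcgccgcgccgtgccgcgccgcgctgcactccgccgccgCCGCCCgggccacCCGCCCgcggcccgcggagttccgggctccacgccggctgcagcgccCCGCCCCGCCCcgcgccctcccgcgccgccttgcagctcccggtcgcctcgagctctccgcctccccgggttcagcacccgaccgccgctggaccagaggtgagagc
The Bmp6 window held 1 GC box, the Bmpr2 window 1 and the Acvr1 window 6, of which the last 2 overlap. The Bmpr2 window lies inside the gene as the count table has it (59763400 to 59879014 on chromosome 1). So do the Acvr1 window (gene from 58388644 to 58567157 on chromosome 2) and the Bmpr1a window, searched but not printed. RefSeq windows of 7 of the 10 members were searched, and Bmp2, Bmp7 and Bambi were left out. All 7 held a GC box, against 35.7% of 32851 windows of the same length. The counts of members with a motif cover these 7 only. They include no member that fell in the Hdac2 line, since Bmp2 and Bambi were left out. The G+C content was 69.3% for Bmp6, 59.3% for Bmpr2 and 83.7% for Acvr1, against a median of 52.7% over all windows. The palindrome GGCGCC, the core of a BMP response element, lay in 3 of the 7 (Bmpr1a, Bmpr2 and Grem1), against 11.9% of all windows. The SMAD palindrome GTCTAGAC (0.213% of all windows), the GATA motif AGATAA (11.2%), the RUNX motif TGTGGT (16.8%) and the TEAD motif CATTCC (14.7%), each searched on both strands, lay in 0 of the 7.

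Among the 4 member ligands, Bmp6 had the largest log2 fold change. Bmp6 (chromosome 13, 38345716 to 38499728, mm10), an endothelial BMP known for raising hepcidin in the liver, had 147 and 207 CPM in the Hdac2 lox/lox 4OHT libraries, against 19.4 and 20.9 CPM in the Hdac2 lox/lox EtOH libraries. The groups do not overlap, and the lowest 4OHT library lies far above the highest EtOH library. The log2 fold change was 3.13 ± 0.74 (SE, adjusted p = 0.019), with a 95% interval from 1.42 to 4.84. Without a filter on low counts its adjusted p was 0.10 and it was not called. Exons of Bmp6 share 224 of 3900 bases with Txndc5 on the opposite strand, and the sources used here do not say whether the counting used strand. Txndc5 had 691 and 696 CPM with 4OHT, against 355 and 365 CPM with EtOH, a log2 fold change of 0.95, and how far its reads entered the Bmp6 counts was not tested.

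Bmp2 (chromosome 2, 133552159 to 133562885), a ligand of heart and bone development, moved the other way. It had 71.5 and 60.5 CPM in the Hdac2 lox/lox 4OHT libraries, against 158 and 144 CPM in the EtOH libraries. It fell, at -1.19 ± 0.25 on the log2 scale (SE, adjusted p = 0.014). Bmp4 (chromosome 14, 46383520 to 46390669), the ligand of mesoderm formation, had 126 and 94.2 CPM with 4OHT, against 86.7 and 70.7 CPM with EtOH. The 4OHT libraries were both higher, but the test did not pass, with a log2 fold change of 0.49 ± 0.24 SE and an adjusted p of 0.14. The 95% interval ran from -0.07 to 1.04. Bmp7 (chromosome 2, 172868012 to 172940321), a ligand of kidney and eye development, was close to the limit of detection, with 1 and 8 counts with 4OHT, against 8 and 12 counts with EtOH. The summed counts of 9 (exact Poisson 95% interval 4.12 to 17.1) and 20 (12.2 to 30.9) have overlapping intervals, which cover counting error only.

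Levels of different genes were compared per kilobase of exon. On that scale Bmp2 made up 17.7% and 15.2% of the summed level of the 4 ligand genes in the Hdac2 lox/lox 4OHT libraries, against 50.5% and 52.2% in the EtOH libraries of the line. Bmp6 made up 33.0% and 47.3% with 4OHT, against 5.64% and 6.91% with EtOH. The share of Bmp4 was 49.3% and 37.4% with 4OHT, against 43.7% and 40.5% with EtOH, and these groups overlap. The sum itself was 113.9 and 112.1 CPM per kb with 4OHT, against 88.1 and 77.6 CPM per kb with EtOH. With EtOH, Bmp2 stood above Bmp4 and Bmp6 in both libraries, and with 4OHT both Bmp4 and Bmp6 stood above Bmp2. In the Hdac1 line the Bmp6 share was 26.8% and 8.39% with 4OHT, against 8.04% and 25.0% with EtOH, and followed single libraries rather than the label. These shares are descriptions of each library and carry no test.

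**Figure D2:**
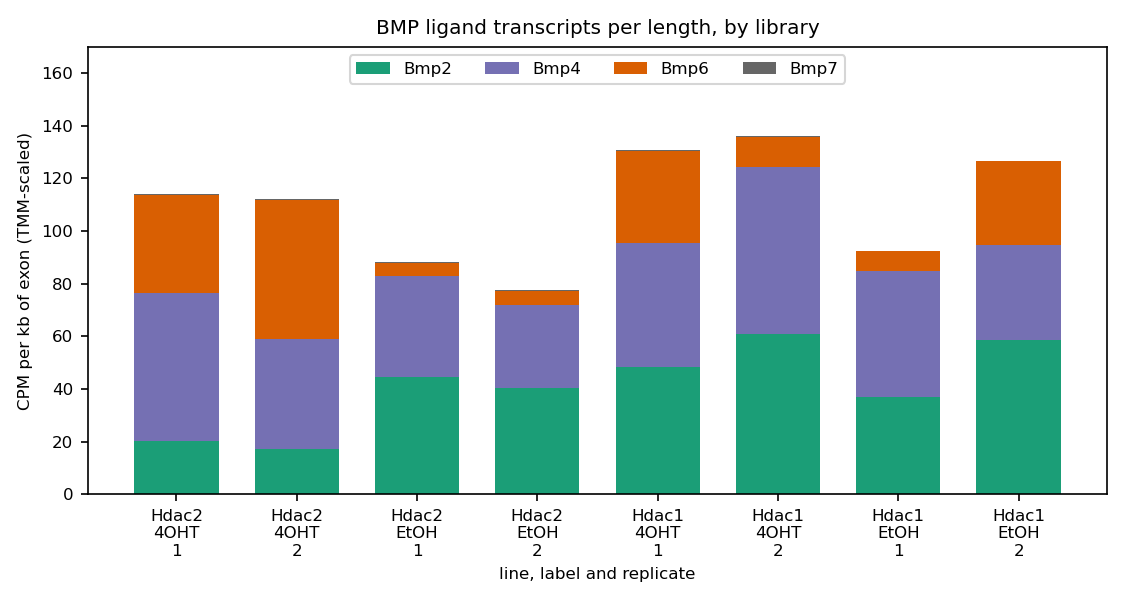
Stacked bars of the level of Bmp2, Bmp4, Bmp6 and Bmp7 per kilobase of exon (y axis, TMM-scaled CPM per kb, from 0) in each of the 8 libraries (x axis: line, label, replicate). Bmp6 fills 33.0% and 47.3% of the bar in the Hdac2 4OHT libraries, against 5.64% and 6.91% in the Hdac2 EtOH libraries, and Bmp7 is barely visible in any of the 8.

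All 3 receptor genes read higher with 4OHT in the Hdac2 line, and Bmpr2 and Acvr1 passed the test. Bmpr2 (chromosome 1), the type II receptor whose loss-of-function mutations underlie heritable pulmonary arterial hypertension in humans, had 360.2 and 486 CPM with 4OHT, against 107 and 117 CPM with EtOH. Its log2 fold change was 1.92 ± 0.57 (SE, adjusted p = 0.036), and without a filter on low counts it was not called (adjusted p = 0.17). Acvr1 (chromosome 2, 58388644 to 58567157) encodes the type I receptor ALK2. It had 58.0 and 59.2 CPM with 4OHT, against 23.5 and 23.2 CPM with EtOH (log2 fold change 1.33 ± 0.25 SE, adjusted p = 0.012), and its replicates differed by at most 1.02-fold within either group. Bmpr1a (chromosome 14, 34410734 to 34503341) encodes the type I receptor ALK3. It had 132 and 139 CPM with 4OHT, against 81.4 and 88.7 CPM with EtOH. The groups do not overlap, but the test missed the threshold (log2 fold change 0.68 ± 0.25 SE, adjusted p = 0.069). It passed in DESeq2 (adjusted p = 0.039), and over 17 alternatives the adjusted p ran from 0.0023 to 0.24.

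Of the regulators of ligand access, Bambi alone passed the test. Bambi (chromosome 18, 3507957 to 3516404), the decoy receptor gene, had 51.9 and 57.5 CPM with 4OHT in the Hdac2 line, against 111 and 132 CPM with EtOH. It fell, at -1.15 ± 0.27 on the log2 scale (SE, adjusted p = 0.018). Bmper (chromosome 9, 23223076 to 23485202), which encodes the endothelial BMP-binding protein also called crossveinless-2, had 10.6 and 11.8 CPM with 4OHT, against 4.28 and 3.44 CPM with EtOH. The 4OHT libraries were both higher, but the test did not pass, with a log2 fold change of 1.52 ± 0.72 SE and an adjusted p of 0.13. The 95% interval, from -0.14 to 3.19, is wide. It passed in DESeq2 (adjusted p = 0.040) and when only the Hdac2 libraries were fitted (adjusted p = 0.0018). Grem1 (chromosome 2, 113746164 to 113758646), the gene of gremlin 1, had 1 read in the whole series, in Hdac1 lox/lox 4OHT replicate 1. A count of 0 allows up to 3 counts, or 0.150 to 0.287 CPM per library.

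In the Hdac2 line the 8 tested members did not overlap between 4OHT and EtOH, 6 higher and 2 lower with 4OHT, but 78.3% of all tested genes did not overlap either (38.6% higher and 39.7% lower). The 5 calls rested on having 2 libraries in each group. Without 4OHT replicate 1, 4OHT replicate 2, EtOH replicate 1 or EtOH replicate 2 of this line, 0 members passed (the lone library left was given the spread of the other groups), and calls over all genes dropped to 826, 91, 116 and 0. The direction held for all 8 members in each of these fits. Of the 5 called members, 5, 5, 4 and 5 in the same order still had an unadjusted p under 0.05, the exception being Bmpr2 without EtOH replicate 1 (0.059), and the log2 fold change of Bmp6 stayed between 2.87 and 3.36.

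Other measures moved with these changes. The summed level of 11 haemogenic endothelium markers was 5358 and 6986 CPM with 4OHT, against 2878 and 3139 CPM with EtOH. Cdh5, the largest part, had 2342 and 3026 CPM, against 786 and 745 CPM. The markers did not move together: 4 rose (Cdh5, Pecam1, Kdr and Sox7) and 3 fell. Those that fell were Tal1, Gfi1b and Itga2b, with log2 fold changes of -1.18, -2.70 and -1.91. Tek, Kit, Runx1 and Gfi1 did not pass. The sum of 9 smooth muscle and mesenchyme markers was 6544 and 4328 CPM, against 2205 and 1535 CPM, with 5 of 9 risen. That of 7 erythroid markers was 357 and 223 CPM, against 1662 and 1626 CPM, with 5 of 7 fallen. That of 7 macrophage markers was 61.1 and 51.7 CPM, against 18.99 and 9.36 CPM, with 6 of 7 risen. Visceral endoderm markers summed to 218 and 231 CPM, against 48.6 and 53.3 CPM, with 2 of 3 tested risen. These were Sox17, which arterial endothelium also expresses and which made up nearly all of the sum, and Foxa2, at 4.97 and 3.02 CPM, against 0.389 and 0.382 CPM, while Ttr, Apoa1, Apob and Hnf4a stayed under 1 CPM in all 8 libraries. Cardiomyocyte markers summed to 24.1 and 27.3 CPM, against 30.8 and 15.9 CPM, with 2 of 5 tested risen and 1 fallen. Nkx2-5 rose, at 8.77 and 11.9 CPM, against 0.972 and 1.15 CPM, as did Myh7, and Tnni1 fell, while Myl7 and Actn2 were under 1 CPM in every library. Pluripotency markers summed to 1.09 and 1.69 CPM, against 2.98 and 4.11 CPM, with 1 of 2 tested, Sox2, fallen. The part of cell composition in the BMP changes was not tested, and in bulk RNA fewer cells of a type and less RNA per cell cannot be told apart.

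In the Hdac1 line replicates lay far apart for several members, and no change passed the test. Bmp6 had 136 and 44.5 CPM in the Hdac1 lox/lox 4OHT libraries, against 29.0 and 123 CPM in the Hdac1 lox/lox EtOH libraries. The replicates thus differed 3.06-fold with 4OHT and 4.25-fold with EtOH. Bmpr2 had 348 and 144 CPM with 4OHT, against 105 and 339 CPM with EtOH. Bmper had 24.2 and 6.32 CPM with 4OHT, against 9.06 and 28.9 CPM with EtOH. In each of these 3 genes 4OHT replicate 1 and EtOH replicate 2 were high and the other two libraries were low.

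Bmpr1a followed the same order, with 201 and 134 CPM with 4OHT, against 120.4 and 181 CPM with EtOH in the Hdac1 line. Bambi ran opposite to it, with 32.3 and 45.0 CPM with 4OHT, against 60.6 and 37.1 CPM with EtOH. The sum of the 11 haemogenic endothelium markers, of which Cdh5 was the largest part, was also highest in the same 2 libraries. It was 5773 and 4387 CPM with 4OHT, against 4038 and 5515 CPM with EtOH. The erythroid sum was lowest in these 2 libraries, at 155 and 426 CPM with 4OHT, against 923 and 280.2 CPM with EtOH. The part of these markers in the spread was not tested.

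Bmp2 and Bmp4 did not share that order. Bmp2 had 172 and 217 CPM with 4OHT in the Hdac1 line, against 132 and 208 CPM with EtOH. Bmp4 had 106 and 142 CPM with 4OHT, against 108 and 81.4 CPM with EtOH. Acvr1 had 44.5 and 39.7 CPM with 4OHT, against 20.5 and 35.0 CPM with EtOH. It was the 1 member whose groups did not overlap in this line, where 31.2% of all tested genes did not overlap (15.8% higher and 15.4% lower with 4OHT). Its log2 fold change was 0.60 ± 0.24 SE, with an unadjusted p of 0.039 from the fit across all genes and an adjusted p of 0.73. Bmp7 had 2 and 9 counts with 4OHT, against 6 and 1 counts with EtOH.

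The other log2 fold changes of the Hdac1 line ran from -0.34 for Bambi (adjusted p = 0.86) to 0.40 for Bmp4 (adjusted p = 0.798), and 0 of 14179 genes passed (0%), while 947 had an unadjusted p under 0.05, DESeq2 called 32 and limma-voom 0. The 95% intervals were wide for the most variable members, from -1.32 to 1.81 for Bmp6, from -1.14 to 1.43 for Bmpr2 and from -1.85 to 1.19 for Bmper. They therefore leave room for changes of more than 2-fold either way in these 3 genes. The sign of Bmp6 depended on which library was included, with none of the values past the threshold. Its log2 fold change was -0.78 when 4OHT replicate 1 was left out and 0.84 when 4OHT replicate 2 was. With EtOH replicate 1 left out it was -0.45, and with EtOH replicate 2 left out it was 1.63. The map of centred levels shows this arrangement of libraries.

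**Figure D3:**
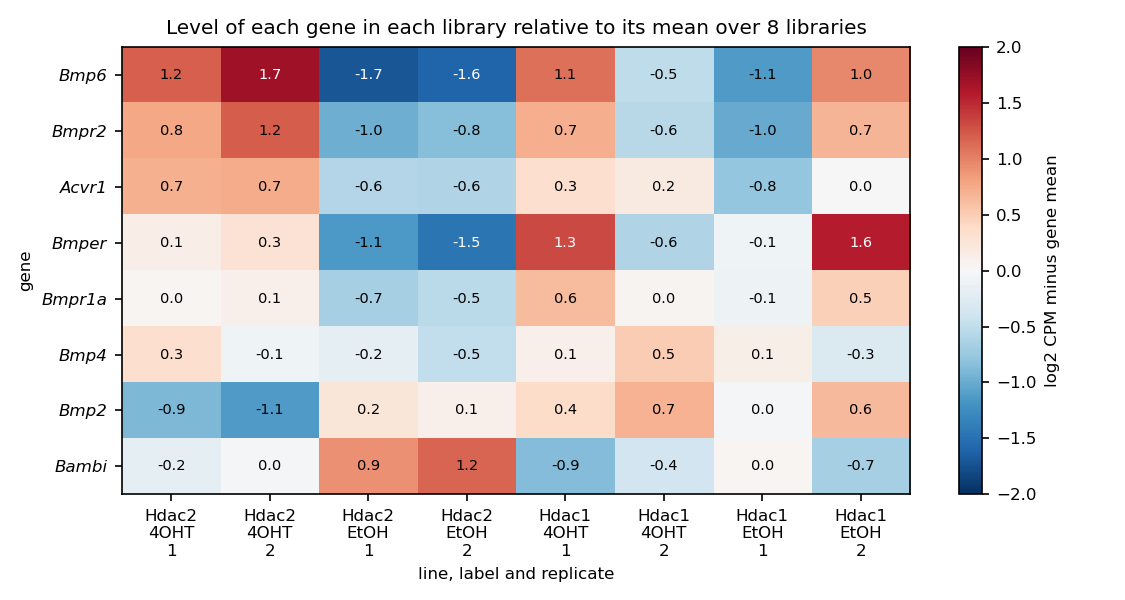
Log2 CPM of the 8 tested BMP genes (rows) in each library (columns: line, label, replicate) minus the gene's mean over the 8 libraries; red is above and blue below that mean. Bmp6, Bmpr2 and Bmper are above their means in both Hdac2 4OHT libraries, in Hdac1 4OHT replicate 1 and in Hdac1 EtOH replicate 2, and Bambi is highest in the Hdac2 EtOH libraries.

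Whether the 4OHT effect differed between the lines was tested as the effect in the Hdac2 line minus that in the Hdac1 line. By edgeR 0 of the 8 members passed, 2 had an unadjusted p under 0.05, and 0.0282% of all tested genes passed (4 of 14179). DESeq2 called 1 member, where it called 1781 genes in all, and limma-voom 0, where it called 1 gene in all. The gap nearest to the threshold was that of Bmp2, at -1.39 ± 0.34 on the log2 scale (SE, adjusted p = 0.084), with a 95% interval from -2.18 to -0.59. It passed in DESeq2 (adjusted p = 0.0085) and without a filter on low counts (adjusted p = 0.011), and over 16 alternatives the adjusted p ran from 0.0085 to 0.302. Bmp6 followed, at 2.89 ± 0.98 (SE, adjusted p = 0.12). The number of differences that passed varied with the library left out. Over these fits the difference of Bmp2 ran from -1.76 to -1.09 and that of Bmp4 from -0.14 to 0.32. For Bmp4 the difference was 0.09, with an interval from -0.69 to 0.87. The changes called in the Hdac2 line are therefore not shown to be particular to it.

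**Figure D4:**
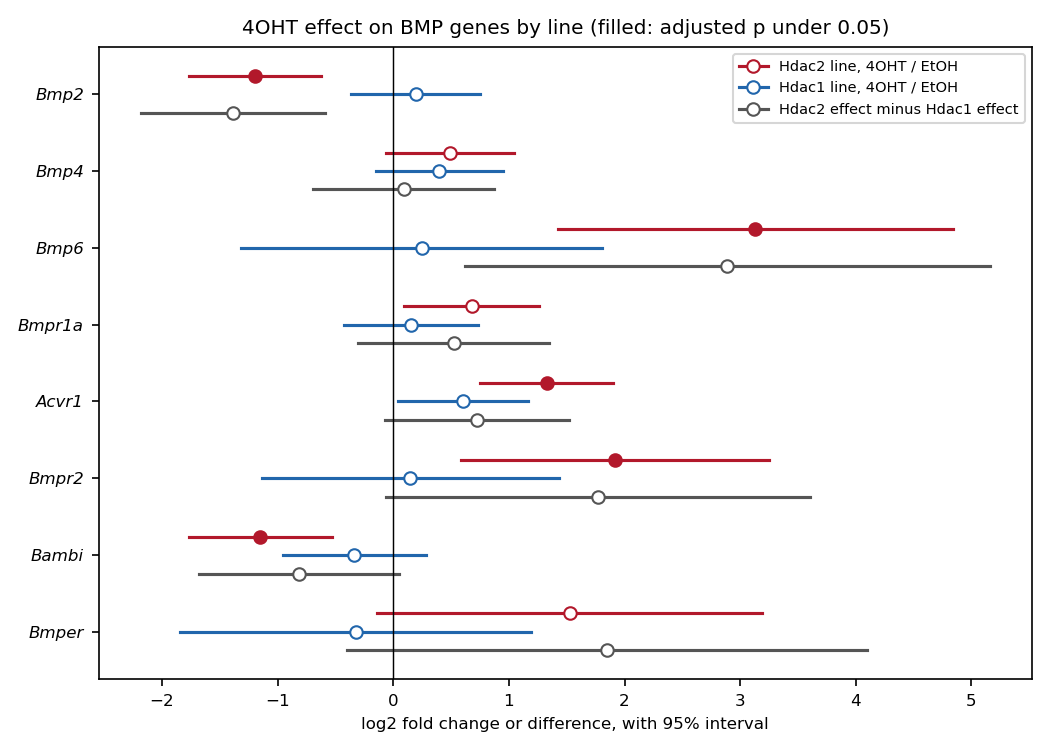
Log2 fold change of 4OHT over EtOH in the Hdac2 line (red) and the Hdac1 line (blue), and the difference between these effects (grey), for the 8 tested BMP genes (y axis), with 95% intervals on the x axis; filled points have an adjusted p under 0.05. Filled points are Bmp2, Bmp6, Acvr1, Bmpr2 and Bambi in the Hdac2 line, and no grey point is filled.

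With EtOH alone, 1 of the 8 tested members differed between the lines. Bambi had 111 and 132 CPM in Hdac2 lox/lox EtOH, against 60.6 and 37.1 CPM in Hdac1 lox/lox EtOH. This was the member called, at 1.31 ± 0.27 on the log2 scale (SE, adjusted p = 0.032), where 9.33% of all tested genes passed (2.91% higher and 6.42% lower in the Hdac2 line). Bmper had 4.28 and 3.44 CPM in the Hdac2 line, against 9.06 and 28.9 CPM in the Hdac1 line (log2 fold change -2.29 ± 0.71 SE, adjusted p = 0.076). Bmp6, at 19.4 and 20.9 CPM in the Hdac2 line, against 29.0 and 123 CPM in the Hdac1 line, and Bmpr1a, at 81.4 and 88.7 CPM, against 120.4 and 181 CPM, did not overlap either, and neither passed (adjusted p = 0.11 and 0.073). Altogether 4 of 8 members did not overlap, 1 higher and 3 lower in the Hdac2 line, where 60.1% of all tested genes did not (29.9% higher and 30.3% lower). The members called here also varied with the library left out, and the log2 fold change of Bambi then ran from 0.997 to 1.71. These EtOH libraries also serve as the controls of both 4OHT comparisons.

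Over all 8 libraries the order of mean levels per kilobase of exon was Bmp4 (45.3 CPM per kb), Bmp2 (40.9), Bmp6 (23.3), Bmpr1a (21.2), Bmpr2 (13.9), Bambi (12.997), Acvr1 (7.86), Bmper (2.55), Bmp7 (0.109) and Grem1 (0.002). Neighbours in this order overlapped in their ranges over libraries, except Bmper (0.711 to 5.97 CPM per kb) and Bmp7 (0.0124 to 0.285). This order pools groups that differ. Bmp6 averaged 45.3 ± 10.9 CPM per kb in Hdac2 lox/lox 4OHT, against 5.17 ± 0.278 CPM per kb in Hdac2 lox/lox EtOH (SD, n = 2 each), where it lay below Bambi, Bmpr1a and Bmpr2 and where Bmp2 lay above Bmp4. Some tested genes had nearly the same profile as a member. Over the 8 libraries the log2 CPM of Bmp6 was closest to that of Ubr4 (Pearson r 0.998) and Mast4 (0.996). Bmpr2 was closest to Dpp8 (0.999) and Hipk3 (0.997), Acvr1 to Inppl1 (0.992) and Flt1 (0.990), the VEGF receptor gene, Bambi to Gpr108 (0.992) and Panx1 (0.984), and Bmp2 to Ankrd10 (0.970) and Nrip3 (0.953). Bmpr1a was closest to Actr2 (0.994) and Asph (0.991), Bmper to Fam204a (0.981) and Casc4 (0.976), and Bmp4 to Mfsd11 (0.953) and Parp3 (0.939). These values describe likeness over libraries that share their group structure, and they were the highest of many.

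The other genes of the pathway were read from lists of 49 genes, of which 37 had enough reads. In the Hdac2 line 12 of these rose and 1 fell, and 24 did not pass. The share called in either direction was close to that over all tested genes (36.1%). Over all tested genes the split was more even, with 18.9% risen and 17.2% fallen. The counts by list below are small and stand against the same shares, and nothing is read from them about the pathway. Among other ligands and processing genes, 1 of 4 tested rose and 1 fell. Bmp1, which despite its name encodes a procollagen and chordin protease, had 135 and 139 CPM with 4OHT, against 33.5 and 17.0 CPM with EtOH (log2 fold change 2.43 ± 0.49 SE, adjusted p = 0.013). Bmp5, a low-abundance ligand gene, had 0.310 and 0.444 CPM with 4OHT, against 1.94 and 7.74 CPM with EtOH (log2 fold change -3.64 ± 0.83 SE, adjusted p = 0.018), and its EtOH replicates differed widely.

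Among other receptors and co-receptors 3 of 6 rose, where 18.9% of all tested genes did. Acvrl1, the endothelial type I receptor ALK1 for BMP9 and BMP10, had 333 and 419 CPM with 4OHT, against 194 and 173 CPM with EtOH. Its log2 fold change was 1.04 ± 0.25 (SE, adjusted p = 0.020). Rgmb, which encodes a BMP co-receptor, had 19.4 and 25.5 CPM with 4OHT, against 8.30 and 5.25 CPM with EtOH (log2 fold change 1.72 ± 0.30 SE, adjusted p = 0.011). Eng, the endoglin co-receptor gene, was the third that rose (log2 fold change 1.88 ± 0.29 SE). The type II receptor gene Acvr2a did not pass, at 0.60 ± 0.25 SE (adjusted p = 0.092).

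Among other extracellular regulators 4 of 12 rose and 0 fell, where 18.9% of all tested genes rose and 17.2% fell. Crim1, which encodes a membrane protein that tethers BMPs, had 409 and 339.8 CPM with 4OHT, against 54.96 and 43.1 CPM with EtOH (log2 fold change 2.93 ± 0.47 SE, adjusted p = 0.0088). The follistatin-like genes Fstl1 and Fstl3 and the chordin-like gene Chrdl1 rose by log2 fold changes of 1.196 ± 0.22, 1.66 ± 0.49 and 2.08 ± 0.48 (SE). Nog, the gene of the antagonist noggin, had 9.70 and 7.82 CPM with 4OHT, against 9.20 and 10.98 CPM with EtOH (adjusted p = 0.81). Exons of Crim1 share 123 bases with Fez2, and those of Eng 61 with Fpgs, on the opposite strand, and reads in these stretches cannot be assigned without the strand setting. Acvrl1, Fstl3 and Bmp5 overlap Gm16031, Prss57 and Gm26903, which had 2, 2 and 0 counts in all.

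Among intracellular mediators 3 of 8 rose and 0 fell, where 18.9% of all tested genes rose and 17.2% fell. They were the signal transducer Smad1 (log2 fold change 0.92 ± 0.20 SE, adjusted p = 0.016), the ubiquitin ligase gene Smurf1, which marks SMADs and receptors for degradation (1.52 ± 0.34 SE, adjusted p = 0.016), and the inhibitory Smad7 (1.53 ± 0.43 SE, adjusted p = 0.030). Smad5 had a log2 fold change of -0.09 ± 0.19 SE. Of 9 target genes 2 rose, where 18.9% of all tested genes did, Msx1 (1.69 ± 0.46 SE, adjusted p = 0.027) and Smad7, which stands in both lists. The BMP targets Id1, Id2 and Id3 had log2 fold changes of 0.55, 0.43 and 0.46, with adjusted p from 0.066 to 0.14, and did not pass. In the Hdac1 line, in the difference between lines and between the EtOH libraries 0 of the 37 passed by edgeR. The median log2 fold change of the 37 was 0.92 in the Hdac2 line and 0.23 in the Hdac1 line.

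**Figure D5:**
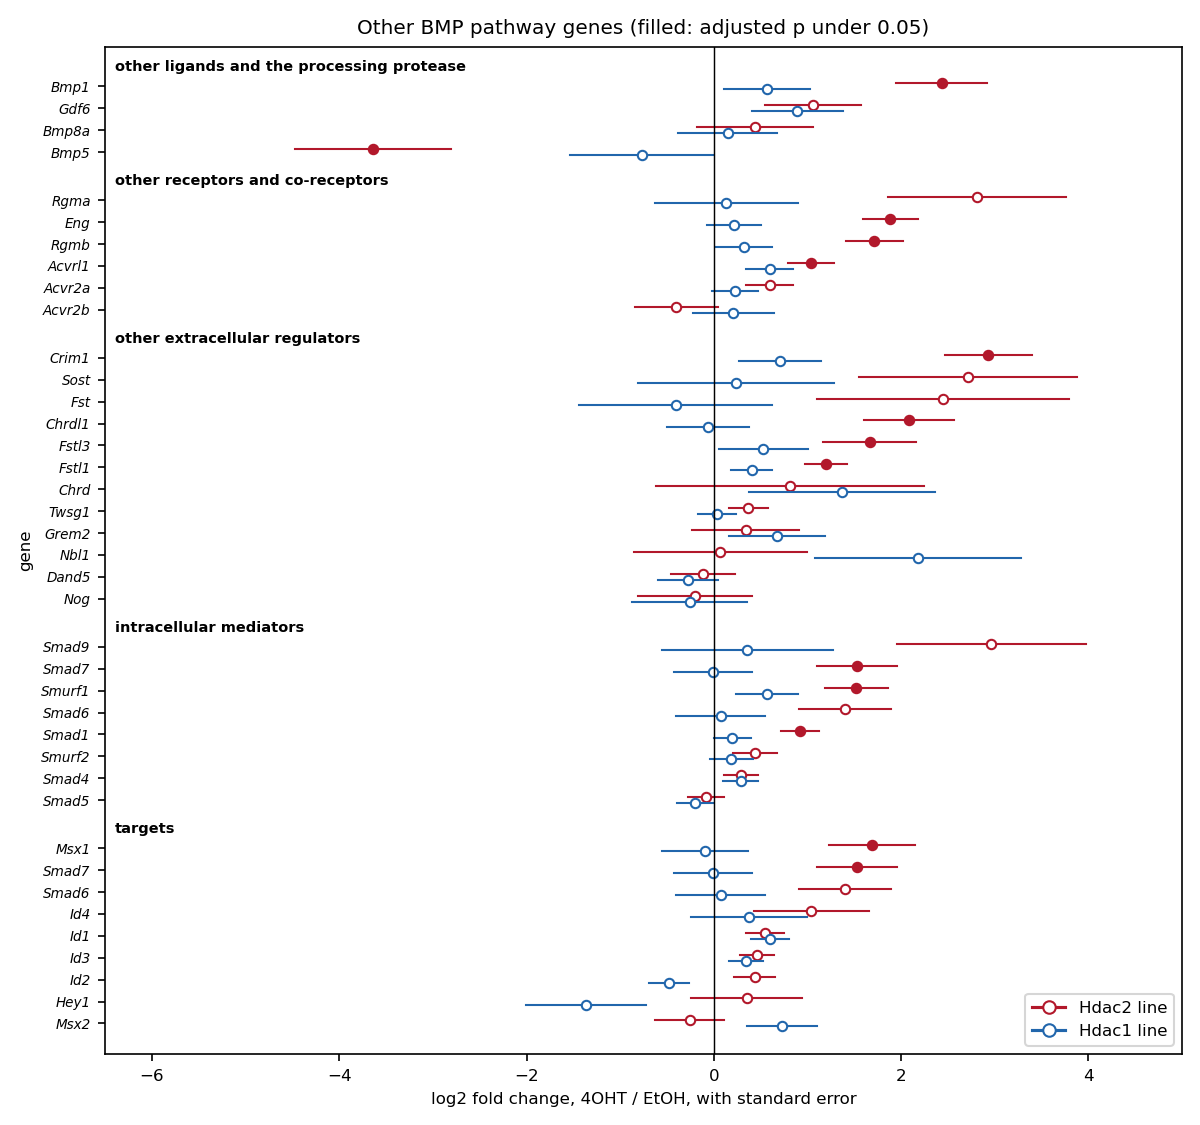
Log2 fold change of 4OHT over EtOH (x axis, bars are standard errors) for other BMP pathway genes (y axis, grouped by role) in the Hdac2 line (red) and the Hdac1 line (blue); filled points have an adjusted p under 0.05, and Smad6 and Smad7 stand in both of the last groups. Filled points are all in the Hdac2 line, 12 genes to the right of 0 and Bmp5 to the left.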

How the data were processed

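The deposited table gives 8 libraries as unnormalized counts, whole numbers for each of 41128 genes, with mm10 coordinates. Per the submitters' processing notes, the build was mm10 and the tools, listed without roles, were edgeR 3.8.5, R 3.1.0, Bowtie2 2.2.1, bcl2fastq 2.17.1.14 and SAMtools 0.1.19. Per the labels' protocols, the library kit was strand-specific with 15 amplification cycles. The sources used here do not name the counting program, its annotation or its strand setting. Groups came from sample titles and columns from sample descriptions.

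Genes were filtered with filterByExpr, which left 14179, scaled by TMM and fitted with edgeR 4.0.16 in R 4.3.3 (quasi-likelihood, robust, a mean per group, all 8 libraries). Standard errors and 95% intervals of log2 fold changes came from the F statistic. DESeq2 1.42.0 and limma 3.58.1 (voom) were alternatives, and the scripts were tested on simulated counts. Exon lengths are unions over GENCODE M21 exons, and promoter windows are from RefSeq. BLAST 2.17.0 found stretches of at least 200 bases at 95% identity or more between members and other genes in 2 cases, both overlapping opposite-strand genes (Txndc5 for Bmp6, Gm17110, with 4 counts in all, for Bmpr1a). Replicates differed by more than counting noise in every group. The members, lists, naming rule and tests were chosen with earlier results of these data known. The rule takes the 10 members, up to 4 called genes per pathway list, and the 2 closest genes by Pearson r (mean CPM of at least 5) per member. Genes of the lists named although not called, and the genes that overlap members or check libraries, are named outside it, after their values were seen.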

Additional observations from a re-analysis of the deposited data

How the results depend on the processing

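In the Hdac2 line, 4OHT against EtOH gave 5 called members (5113 calls over all genes). It gave 5 under the other scalings (5048 to 5394 over all genes) and 5 with limma-voom (4759). DESeq2 gave 7 (5572). A fit without a filter on low counts gave 4 (4975), with Bmp6 and Bmpr2 lost and Bmpr1a gained. A fit of that line alone gave 8, and its calls over all genes are not given here. The number also varied when single libraries were left out. The Hdac1 line gave 0 under all alternatives run. The difference between lines gave 0 (4 over all genes), but 1 (Bmp2) without a filter on low counts (1187 over all genes). It gave 1 with DESeq2 (1781), and the number varied without single libraries. The EtOH comparison gave 1, 2 with library size only, 2 without a filter, 3 with DESeq2, and 0 to 6 without single libraries. Calls over all genes in the EtOH comparison were higher in these fits too. They numbered 1323 in the main fit, 1557 with library size only, 2064 without a filter and 2801 with DESeq2. Those without single libraries are not given here. No called value changed sign, and the cause of lost calls was not tested. Upper quartile scaling and library size alone moved the median of all genes in the Hdac2 line to -0.15 and -0.14, and changed the split of calls from 2680 higher and 2433 lower to 2346 and 3048, and 2360 and 2963.

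Replicate numbers are not stated to pair samples, and same-numbered libraries deviated together with r = 0.26 in the Hdac2 line and -0.69 in the Hdac1 line. With the replicate number as a block, the Hdac2 line gave 4 members (Bmpr2 missed, adjusted p = 0.059), the EtOH comparison 0, and calls over all genes in the Hdac2 line were 3624. With the numbers crossed in the Hdac1 line, chosen after seeing the data, the 4 comparisons gave 5, 0, 0 and 1 members. Bmp7 and Grem1 had too few counts, 47 and 1 in all, to be tested. Of the members' single log2 fold changes, 472 kept their direction and side of the threshold under an alternative, 29 lost it and 27 gained it (uncalled values that changed sign count as kept).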
